A study of Mus musculus with 5 samples.

Results

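The miR-200 family was examined in unwounded and wounded back skin of aged mice and in unwounded skin of young mice. Its 5 members, mmu-miR-200a-3p, mmu-miR-200b-3p, mmu-miR-429-3p, mmu-miR-200c-3p and mmu-miR-141-3p (mmu stands for mouse), were taken by name from the 1900 mouse miRNAs of a single-colour miRNA array, and all 5 are on it. The study set out to find miRNAs whose levels differ between aged and young skin during wound healing. All mice were female, and a 3 mm full-thickness punch wound was made in the back skin at the telogen stage. The 5 conditions were 2-year-old (aged) unwounded skin at day 0 (D0), aged skin at D3, D5 and D7 after wounding, and 8-week-old (young) unwounded skin at D0. Each condition has 1 array of total RNA. The mouse strain, and whether 1 animal or a pool was used, are not given in the sources used here. Wounds of young mice were not analysed here, and aged and young wounds are not compared.

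A miRNA represses messenger RNAs that pair with its seed, bases 2 to 8 from the 5′ end, so miRNAs with the same seed share most of their predicted targets. The miR-200 family is abundant in epithelia such as the epidermis and hair follicle. It is best known for repressing Zeb1 and Zeb2, transcription factors that silence E-cadherin and drive epithelial cells towards a mesenchymal state. Its genes lie in a pair of clusters on different chromosomes, and miRNAs of 1 cluster are generally cut from 1 long primary transcript. Seed and cluster cut across each other, so it can be asked which of them the levels followed.

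The mature sequences are shown because these few bases decide both the grouping and what each probe can tell apart. They are printed 5′ to 3′ from RefSeq (GRCm38.p6), with the seed in capitals, first the 3 members of the chromosome 4 cluster and then the 2 of the chromosome 6 cluster.
miR-200b-3p: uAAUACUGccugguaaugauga
miR-429-3p: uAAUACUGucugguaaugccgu
miR-200a-3p: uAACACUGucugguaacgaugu
miR-200c-3p: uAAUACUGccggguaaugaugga
miR-141-3p: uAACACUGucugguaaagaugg

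The seed AAUACUG is held by miR-200b-3p, miR-429-3p and miR-200c-3p, and the seed AACACUG by miR-200a-3p and miR-141-3p. The seeds differ at 1 base, U4C counted from the 5′ end of miR-200b-3p. No other miRNA among the 1900 has either seed at bases 2 to 8. All 5 genes are on the minus strand. In the chromosome 4 cluster the mature sequences lie at chr4:156055685-156055706 (miR-200b-3p), chr4:156054911-156054932 (miR-200a-3p) and chr4:156053916-156053937 (miR-429-3p). Its 3 hairpins span 1846 bases within the annotated non-coding gene Gm13648. In the chromosome 6 cluster they lie at chr6:124718324-124718346 (miR-200c-3p) and chr6:124717917-124717938 (miR-141-3p). Those 2 hairpins span 477 bases between the genes Phb2 and Ptpn6.

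The closest sequences cross the clusters. From miR-200b-3p to miR-200c-3p there are 2 substitutions in 22 positions, U11G and A22G, and 1 more base at the 3′ end. From miR-200a-3p to miR-141-3p there are also 2, C17A and U22G. The other 8 pairs differ at 4 or 5 positions, and the nearest probe outside the family differs from a member at 9 or 10. Whether probes so alike share signal was not tested.

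All 5 members were detected on all 5 arrays, meaning that the scanned intensity exceeded the 95th percentile of the 4 empty spots of the array. miR-200a-3p, miR-200b-3p, miR-429-3p and miR-200c-3p were at least 3.82 times this level everywhere. miR-141-3p was only 1.89 to 7.55 times above it and is therefore the least certain of the 5. The other arms of the same hairpins were at or near background. Detection held for miR-200b-5p on 5 arrays, at no more than 1.99 times the level, for miR-200a-5p on 4, for miR-429-5p and miR-141-5p on 2 each and for miR-200c-5p on 1. No ratio is drawn from them. Probes differ in brightness for reasons of their own, so a member's level is compared between arrays and not with that of another member.

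Arrays differed as a whole. The number of miRNAs detected ran from 589 at aged D0 to 1768 at D3, and the median scanned intensity from 62.5 to 110. On the D3, D5 and D7 arrays the detection level lay below the median scanned intensity, at 58.3 against 68.1 on D3. Shares over detected miRNAs therefore include many near background. After background correction, the 5 arrays were brought to 1 common distribution (quantile normalization), and the value of a miRNA is the mean of its 2 spots. Ratios below are of these normalized intensities. With 1 array per condition no test was possible and no p-value is given. A repeat-spot SD, that of the mean log2 ratio of 2 spots, was estimated from the gaps between the spots. It used the miRNAs above 2 times the detection level on both arrays. This SD was 0.14 on D3, 0.13 on D5, 0.24 on D7 and 0.14 for aged vs young skin, and it leaves out any difference between animals. D3, D5 and D7 are all set against the same aged D0 array, which is also the aged side of the age comparison.

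The 3 members of the chromosome 4 cluster had 1 time course, with low levels on D3 and D5 and a partial return on D7. miR-200a-3p had a normalized intensity of 1848 in unwounded aged skin, 525 on D3, 446 on D5, 1055 on D7 and 1768 in young skin. In the same order, miR-200b-3p read 2049, 780, 641, 1122 and 1882. miR-429-3p read 1360, 394, 327, 689 and 937. In each of them the D3 and D5 arrays were the lowest of the 5 and D7 lay between those and aged D0.

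The chromosome 6 cluster did not move as one. miR-200c-3p had a normalized intensity of 2513 at aged D0, 5276 on D3, 1958 on D5, 1418 on D7 and 1416 in young D0. Its highest array was D3, the array on which its seed partner miR-200b-3p was at 780. miR-141-3p, the other product of this cluster, read 298, 140.6, 160.1, 267 and 407. It was lowest on D3 and D5, as the chromosome 4 members were, and highest in young skin.

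**Figure D1:**
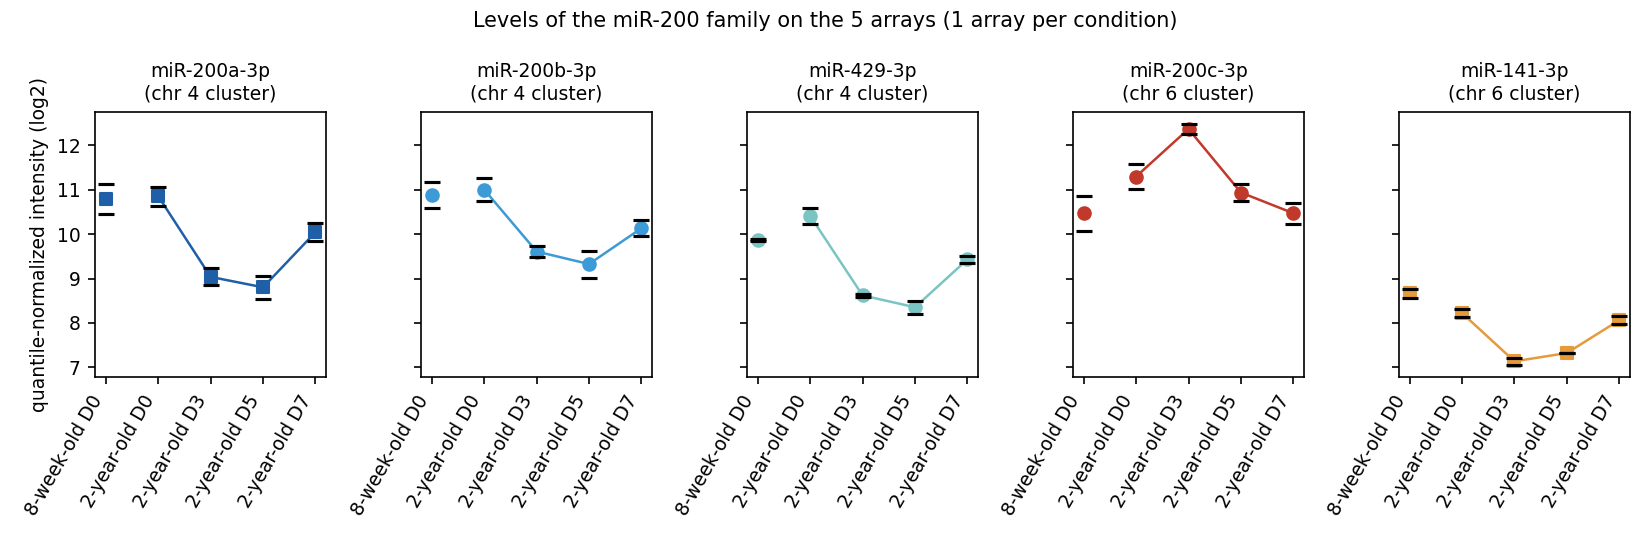
Quantile-normalized log2 intensity of the 5 members on the 5 arrays, 1 panel per member, with squares for miR-200a-3p and miR-141-3p and circles for the others. Symbols are the mean of the 2 spots, black dashes are the single spots and lines join the 4 arrays of 2-year-old skin. miR-200c-3p peaks on D3 while the other 4 members are low there.

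On D3, 4 of the 5 members were at least 2-fold lower than at D0 and 1 was at least 2-fold higher. Over the 1772 miRNAs detected on either array, 2.65% were at least 2-fold lower and 3.44% higher. Among the 207 bright miRNAs, above 2 times the detection level on both arrays, the shares were 19.8% and 14.5%. Ratios to D0 on the low side were 0.284 (miR-200a-3p), 0.289 (miR-429-3p), 0.381 (miR-200b-3p) and 0.471 (miR-141-3p), against a median of 0.781 for the bright miRNAs. It was 2.10 for miR-200c-3p, with 1.87 and 2.35 from its spots. Over 14 alternative settings it ran from 1.28 to 3.03 and was under 2-fold in 5, while miR-141-3p was under 2-fold in 6. The extremes of the family were thus 7.39-fold apart. Of the 207 bright miRNAs, 28 had a higher ratio than miR-200c-3p, and 10 had a lower one than miR-200a-3p.

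On D5, 3 of the 5 members were at least 2-fold lower and 0 higher, where 2.41% of 1079 miRNAs were lower and 2.87% higher, and 9.8% and 7.84% of 204 bright miRNAs. These 3 were the chromosome 4 members, miR-429-3p with a ratio of 0.240, miR-200a-3p with 0.241 and miR-200b-3p with 0.313. Of the 204 bright miRNAs, 2 lay below miR-429-3p. miR-141-3p stood at 0.536 and miR-200c-3p at 0.779, against a bright median of 0.932, and 132 of the 204 were higher than miR-200c-3p. Over the 14 alternative settings miR-141-3p ran from 0.374 to 0.749 and was at least 2-fold lower in 4, and miR-200c-3p in 1. The chromosome 4 members were at least 2-fold lower in all 14.

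From D3 to D5 the cluster on chromosome 4 lay slightly below its D3 level, with ratios of 0.850 (miR-200a-3p), 0.831 (miR-429-3p) and 0.822 (miR-200b-3p). Over the same interval miR-200c-3p was at 0.371, the 1 member of 5 past 2-fold, where 1.58% of 1771 miRNAs and 8.27% of 278 bright ones were at least 2-fold lower. miR-141-3p was at 1.14. From D5 to D7 the order turned. miR-200a-3p was at 2.36, miR-429-3p at 2.11, miR-200b-3p at 1.75 and miR-141-3p at 1.67, while miR-200c-3p was at 0.724. The direction of miR-200c-3p depended on the scaling here, with a ratio above 1 under 4 of the 14 settings and up to 1.83, whereas the other 4 members were above 1 in all 14. In that interval 2 of the 5 members were at least 2-fold higher, against 1.88% of 1597 miRNAs and 7.52% of 266 bright ones. These intervals share their arrays with the ratios to D0 and are no further evidence for them.

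On D7, 0 of the 5 members were past 2-fold, where 1.79% of 1565 miRNAs were lower and 2.56% higher, and 10.3% and 7.88% of 203 bright ones. miR-429-3p stood at 0.506 of D0, miR-200b-3p at 0.547, miR-200c-3p at 0.564, miR-200a-3p at 0.571 and miR-141-3p at 0.895. The family was least spread on this day, with 1.77-fold between the extremes. The spots of 3 members disagreed. The first and second spots gave 0.392 and 0.812 for miR-200c-3p, 0.405 and 0.741 for miR-200b-3p, and 0.431 and 0.757 for miR-200a-3p.

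The first spots of these 3 probes lie close together on the array, and so do their second spots, at another place. Bright spots of other miRNAs near the first spots deviated from their own miRNA's mean by a median of -0.34 to -0.35 on the log2 scale, and those near the second spots by 0.30 to 0.40. With these medians subtracted, the spots of miR-200c-3p gave 0.498 and 0.614 and those of miR-200a-3p 0.545 and 0.617. Position on the array thus went with much of the disagreement, and the mean of both spots was hardly moved by the subtraction, to 0.553 for miR-200c-3p. The spots of miR-429-3p and miR-141-3p lie elsewhere.

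**Figure D2:**
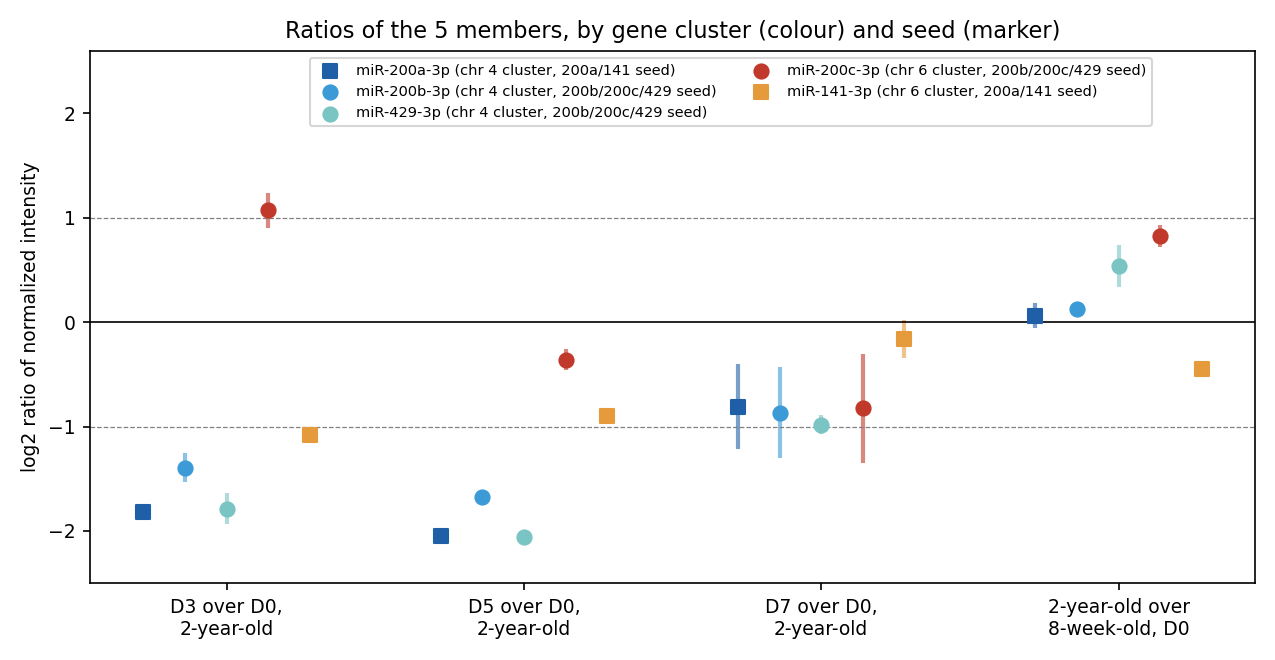
Log2 ratio of normalized intensity of each member in 4 comparisons. Blue shades mark the chromosome 4 cluster, red and orange the chromosome 6 cluster, squares the seed of miR-200a-3p and miR-141-3p and circles the other seed, vertical bars join the 2 spots and dashed lines are at 2-fold. On D3 and D5 the blue symbols lie together, and on D3 miR-200c-3p stands above the line at 0.

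The members were then compared in all 10 pairs, to ask whether sharing the cluster or sharing the seed went with a closer ratio. Of these pairs, 3 share only the cluster, 3 only the seed, 1 both (miR-200b-3p and miR-429-3p) and 3 neither. On D3 the mean absolute difference in log2 ratio was 0.87 for cluster-only pairs, 2.02 for seed-only pairs, 1.30 for pairs sharing neither and 0.40 for the pair sharing both. On D5 these were 0.31, 1.39, 1.21 and 0.38. Cluster-only pairs were therefore closer than seed-only pairs by 1.15 on D3 (1.08 and 1.13 from the single spots) and by 1.08 on D5 (1.05 and 1.11). The pairs overlap in their members, and 5 miRNAs give no replicate of a cluster or a seed.

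The D3 difference rested largely on miR-200c-3p, which enters 2 of the 3 seed-only pairs. Without its pairs the cluster-only pairs were closer by 0.51 on D3 and by 0.96 on D5. This left miR-200a-3p and miR-141-3p as the only seed-only pair, against the pairs of miR-200a-3p with miR-200b-3p and miR-429-3p. With the authors' processed values the D3 order was reversed, at 0.089 for that seed-only pair and 0.45 and 0.13 for the cluster-only pairs. The D5 order held, at 0.82 against 0.47 and 0.11. The 2 clusters were themselves unlike. Members of the chromosome 4 cluster differed at most 1.34-fold in their D3/D0 ratio, 1.30-fold on D5 and 1.13-fold on D7. The 2 products of the chromosome 6 cluster differed 4.46-fold on D3, 1.45-fold on D5 and 1.59-fold on D7. Of the nearly identical seed pairs, miR-200b-3p and miR-200c-3p differed 5.52-fold on D3 and 2.49-fold on D5, and miR-200a-3p and miR-141-3p 1.66-fold and 2.22-fold.

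On D7 and with age, cluster-only and seed-only pairs differed little from each other when all members were used. On D7 the mean absolute difference was 0.30 for cluster-only and 0.28 for seed-only pairs. It was 0.52 for pairs sharing neither and 0.11 for the pair sharing both. In aged vs young skin these were, in the same order, 0.60, 0.50, 0.77 and 0.42. The differences of 0.02 and 0.10 between cluster-only and seed-only pairs changed sign among the alternative ways of processing. They also hung on single members, left out after the data were seen. Without miR-200c-3p the cluster-only pairs were closer by 0.53 on D7 and by 0.24 with age. Without miR-141-3p they were closer by 0.23 with age, while the D7 difference stayed at 0.02.

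**Figure D3:**
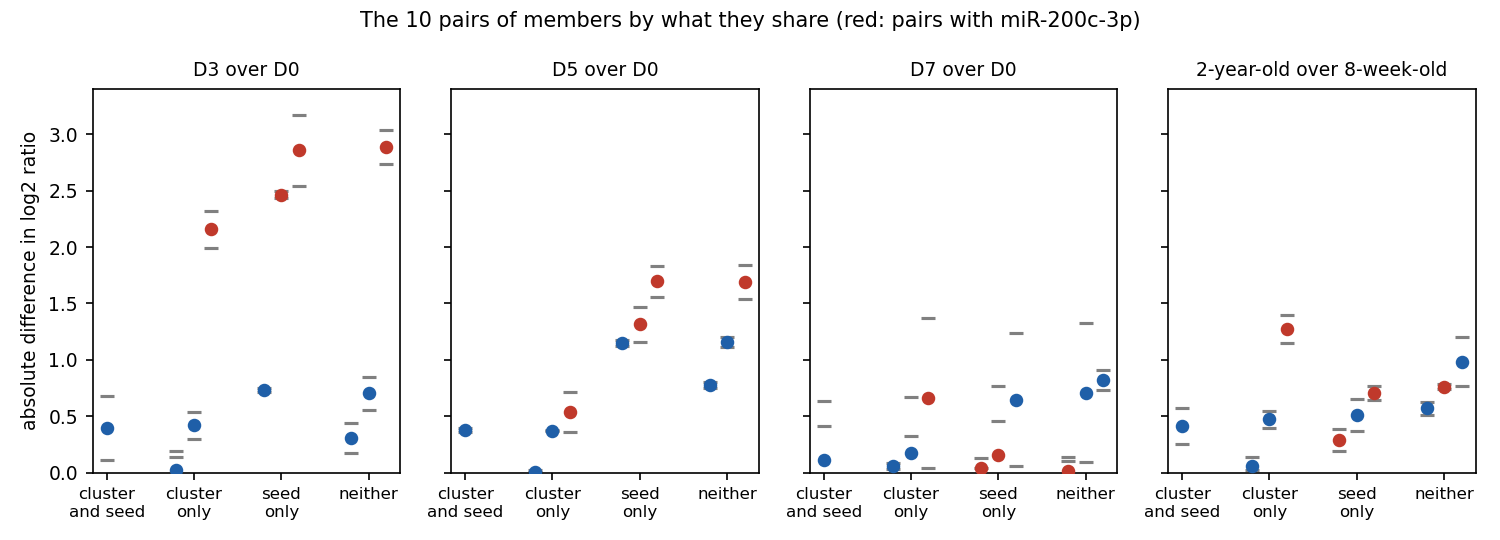
Absolute difference in log2 ratio between the members of each of the 10 pairs, by what the pair shares, in 4 comparisons. Red points are pairs with miR-200c-3p, blue points the others, and grey dashes the same difference from each spot alone, which can both lie above the point where the spots differ in direction. On D3 every pair with miR-200c-3p lies above every pair without it, in the seed-only, neither and cluster-only classes.

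In aged vs young unwounded skin, 0 of the 5 members were past 2-fold, where 2.31% of 779 miRNAs were higher and 6.03% lower, and 7.62% and 8.1% of 210 bright ones. From high to low the ratios were 1.77 (miR-200c-3p), 1.45 (miR-429-3p), 1.09 (miR-200b-3p), 1.05 (miR-200a-3p) and 0.733 (miR-141-3p), against a bright median of 1.16. The directions of miR-200c-3p, miR-429-3p, miR-200b-3p and miR-200a-3p depend on the scaling. miR-141-3p was below 1 in all 14 alternative settings. The 2 arrays had nearly the same median scanned intensity, 95.8 in aged and 94.5 in young skin, but 210 miRNAs were above 2 times the detection level in aged and 339 in young skin. In scanned intensity, before any normalization, all 5 were lower in aged than in young skin. miR-200c-3p was at 2266 in aged and 3287 in young skin, and miR-141-3p at 224 and 809. Under 4 of 14 alternative settings the ratio of miR-200c-3p was below 1, down to 0.628.

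Ratios relative to the bright miRNAs of the same 2 arrays depend less on the scaling, in part by construction. A single factor per array cancels in them, so every scaling by 1 factor per array gives the same value. The ranges below therefore reflect only the other settings. Over the 14 settings, the median of the bright miRNAs in aged vs young skin moved by between -1.48 and 0.43 on the log2 scale. Relative to it, miR-200c-3p was 1.54 times as high in aged skin, with 1.46 to 1.66 over the settings, and miR-429-3p 1.26 times, with 1.06 to 1.40. miR-141-3p was at 0.635 of it, with 0.539 to 0.664. miR-200a-3p and miR-200b-3p were at 0.905 and 0.942, or -0.14 and -0.09 on the log2 scale, no further from it than about the repeat-spot SD, and miR-200b-3p was above it under 1 setting. Within the chromosome 6 cluster, then, miR-200c-3p was above and miR-141-3p below the typical bright miRNA with age.

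The wound ratios were treated in the same way, with the same cancellation. On D3 miR-200c-3p was 2.69 times the bright median, with 2.42 to 3.38 over the settings, and the other 4 members were below it in all 14. The bright median itself moved by between -0.57 and 0.53 on the log2 scale among them. On D5 all 5 members were below the median in all 14, from 0.258 for miR-429-3p to 0.836 for miR-200c-3p. On D7 miR-141-3p was itself the median miRNA and the other 4 members were below it in all 14.

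**Figure D4:**
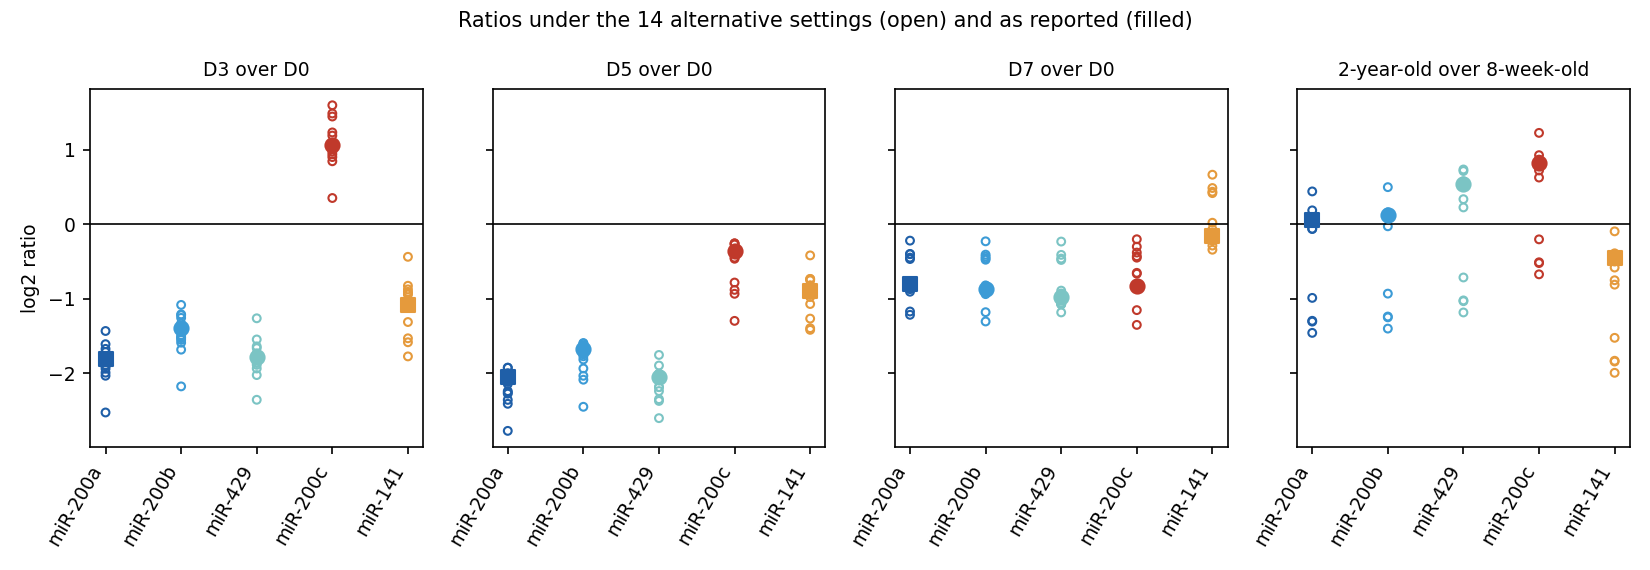
Log2 ratio of each member in 4 comparisons as reported (filled) and under each of the 14 alternative settings (open circles). miR-200c-3p is above 0 on D3 in all 14, whereas in aged vs young skin open circles of 4 members lie on both sides of 0.

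The miRNAs most like each member were sought over the 5 arrays, by the root mean square difference in log2 level after each miRNA's own mean was subtracted. The search covered 199 other miRNAs, those above 2 times the detection level on every array and the remaining members. For each chromosome 4 member the nearest 2 were the other 2 of its cluster, at 0.171 to 0.216. The next was miR-10b-5p for miR-200a-3p, miR-143-3p for miR-200b-3p and miR-183-5p for miR-429-3p. With the authors' processed values, and with all 497 other miRNAs detected on every array, the other 2 cluster members stayed within the nearest 3 for each of them. miR-141-3p was nearest to miR-10b-5p, miR-30e-5p and miR-148a-3p. The place of its seed partner miR-200a-3p depended on the values used, at rank 35 here, rank 53 of 497 and rank 2 of 199 with the authors' processed values. Its cluster partner miR-200c-3p came at rank 172, 462 and 176 in these searches.

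miR-200c-3p had no family member near it. The other 4 stood at ranks 159 to 185 of 199. Its nearest 3 were miR-7045-5p, miR-8110 and miR-7235-5p, at 0.196 to 0.270, and miR-7045-5p stayed among the nearest 3 in both of the other searches. Their sequences are shown, as the array annotation gives them and with bases 2 to 8 in capitals, because they are unlike that of miR-200c-3p in composition.
miR-7045-5p: aGCGGGUGggggagggggacu
miR-8110: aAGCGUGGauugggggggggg
miR-7235-5p: gGAGGGAGgggucugggc

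These 3 are rich in G and have a GC content of 76.2%, 71.4% and 77.8%, whereas miR-200c-3p has 43.5% and the other members 36.4% to 40.9%. Their D3/D0 ratios were 2.86, 2.13 and 1.79. Among the bright miRNAs, those with more GC tended to have higher D3/D0 ratios. Of 55 bright miRNAs with a GC content of 60% or more, 37 were higher on D3 than at D0, with a median ratio of 1.75. Of 152 below 60%, 25 were higher, with a median of 0.705. What part GC content had in these ratios was not tested.

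On D3 miR-200c-3p lay apart from the miRNAs of its own composition. Among 71 other bright miRNAs within 5 percentage points of its GC content, the median D3/D0 ratio was 0.685, and 1 was higher than miR-200c-3p. That was miR-3473f, looked up after the values were seen, at 2.41. The other 4 members lay on the low side of theirs. For miR-200a-3p 61 of 63 such miRNAs were higher, for miR-429-3p 60 of 63, for miR-200b-3p 43 of 47 and for miR-141-3p 50 of 63. In aged vs young skin 2 of 72 were higher than miR-200c-3p. On D5 it lay in the middle of such miRNAs, with 37 higher and 33 lower, and on D7 65 of 71 were higher.

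**Figure D5:**
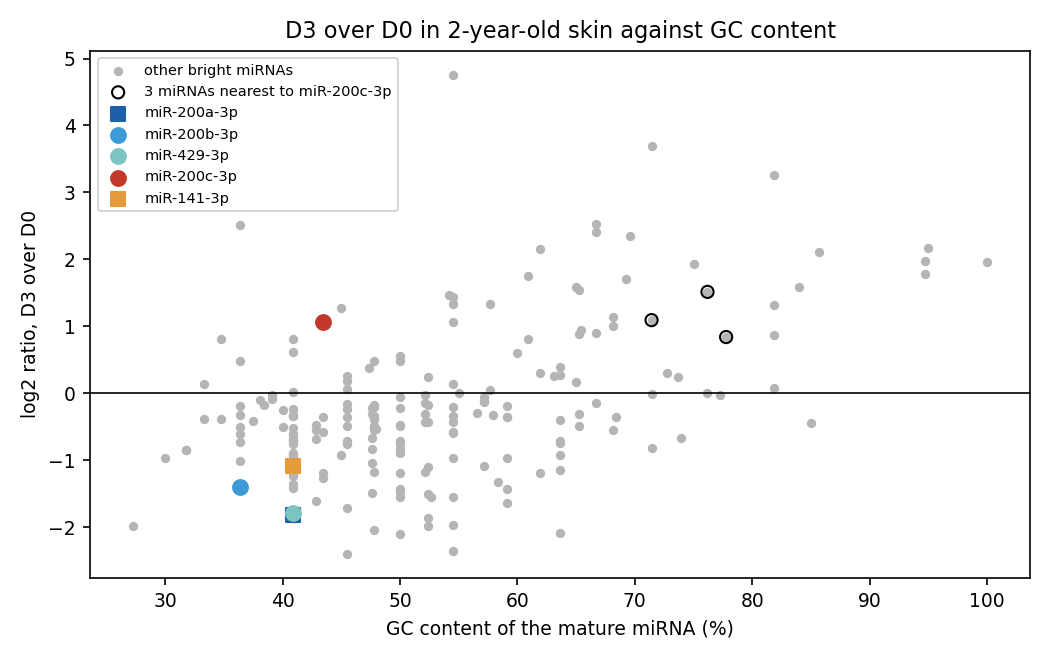
Log2 D3/D0 ratio against the GC content of the mature miRNA for the 207 bright miRNAs. Coloured symbols are the 5 members (miR-200a-3p lies almost under miR-429-3p) and open circles the 3 miRNAs nearest to miR-200c-3p, which lie above 70% GC. miR-200c-3p is above nearly all miRNAs of similar GC content.

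Other miRNAs typical of skin epithelium were lower on D3 too, and none of them was at least 2-fold higher. Of 6 listed, 3 were at least 2-fold lower on D3, 1 on D5 and 2 on D7, with median ratios of 0.469, 0.661 and 0.720. miR-203-3p, which promotes keratinocyte differentiation, stood at 0.428 on D3 and miR-205-5p, abundant in basal keratinocytes, at 0.514. By D5 miR-205-5p was at 1.002 and miR-203-3p at 0.614, while the chromosome 4 members were at 0.240 to 0.313. miR-183-5p, at 0.274 on D3 and 0.313 on D5, was the listed miRNA closest to them. In aged vs young skin, 2 of the 6 were at least 2-fold higher and 1 lower, with a median ratio of 1.62. Markers of other cells differed with age as well. Of 5 leukocyte miRNAs 3 were at least 2-fold lower in aged skin, with a median of 0.268 and a summed normalized intensity of 1088 against 2652. Both erythroid miRNAs detected were at least 2-fold higher, with a median of 2.13. Before normalization both were lower in aged skin. The summed scanned intensity of the erythroid list was 2034 in aged and 2496 in young skin. The direction of the erythroid ratios thus depended on the normalization, while the leukocyte sum was lower before it too, at 901 against 5829. The median normalized ratios were 0.966 for skeletal muscle, 1.05 for fibroblasts and smooth muscle and 0.871 for endothelium, with 0 miRNAs past 2-fold. Their part in the members' age ratios was not tested.

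Lists for other cell types moved in the same samples. The summed normalized intensity of 6 epithelial miRNAs went from 33336 in unwounded aged skin to 15331 on D3, with 27999 on D5, 22591 on D7 and 16685 in young skin. In scanned intensity the D0 sums were nearly equal, 35145 in aged and 35341 in young skin. The difference with age in this sum thus came with the normalization. Most of the aged scanned sum was miR-205-5p and miR-203-3p, at 19978 and 11451. Of 5 leukocyte miRNAs, led by the myeloid miR-223-3p, 3 were at least 2-fold higher on D3, with a median ratio of 2.92, and their summed normalized intensity went from 1088 to 5328. All 4 skeletal muscle miRNAs were at least 2-fold lower on D3, with a median of 0.294, and 2 of 5 of fibroblasts and smooth muscle, with 0.657. Of 3 erythroid miRNAs on the array 1 was at least 2-fold lower, and the 1 endothelial miRNA detected was at 0.714. In whole skin, fewer epithelial cells and less of a miRNA per cell cannot be told apart. The part of cell composition in the members' ratios was not tested.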

How the data were processed

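Levels were measured on single-colour (Cy3) arrays, 1 for each of the 5 conditions, which the labels give. The values deposited for each array are linear scanner intensities per spot, before any normalization, and the background columns are empty. The authors also deposited a table of processed intensity for each miRNA, whose normalization is not given in the sources used here.

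From the scanned intensity, normexp background correction (limma 3.58.1 in R 4.3.3, offset 50) was fitted on all spots. Control spots were then dropped, log2 values of the 5 arrays were quantile normalized together, and repeat spots were averaged. This step hides any change that all miRNAs have in common. Tables and plots were made with Python 3.11.15, pandas 2.3.3, numpy 2.4.6 and matplotlib 3.10.9. The number of arrays limits the precision. The offset draws ratios towards 1, most of all for dim miRNAs. The ratio step was tested on simulated data.

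The members, the marker lists, the pair classes and the rule for nearest miRNAs were chosen with earlier results of these data known. The rule for names took the members, the other arms of their hairpins, the epithelial list and the 3 miRNAs nearest to each member, of which some epithelial ones are given only in counts. Outside it, miR-3473f and miR-223-3p were named after their values were seen. Marker lists came from general knowledge, and all members' sequences matched RefSeq. The 14 alternative settings were other scalings, background corrections, the processed table (values below 1 set to 1) and single spots.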

Additional observations from a re-analysis of the deposited data

How the results depend on the processing

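The number of members past 2-fold changed with the scaling. With no normalization between arrays or with scaling to 5S ribosomal RNA, 3 members were past 2-fold on D3 and 4 in aged vs young skin, all of them lower. On D3 the higher call of miR-200c-3p was also lost with scaling to the 75th percentile (1.80), to the spike controls (1.28) and with the first spot (1.87). The lower call of miR-141-3p was also lost with scaling to the median (0.739), cyclic loess (0.564), the 2 arrays alone (0.526) and an offset of 100 (0.546). Scaling to the spike controls gave 5 on D5 and 1 with age, all lower. On D5 there were 4, all lower, with an offset of 16, with plain subtraction of the empty spots and with the authors' processed values. Scaling to the 75th percentile gave 4 lower on D7 and 1 higher with age, and scaling to the median gave 4 lower with age. On D7 there were 3 with the first spot alone, and 1 each with the second spot alone, quantile normalization of the 2 arrays compared, an offset of 16, plain subtraction of the empty spots and the authors' processed values. A threshold of 3-fold left 2 on D3, and 1.5-fold gave 4 lower on D7 and 1 higher with age. Over the 14 settings, the ratios of members past 2-fold on D3 and D5 kept their side of 1. The ratio with age was below 1 in 6 settings for miR-200a-3p, in 5 for miR-200b-3p and in 4 each for miR-429-3p and miR-200c-3p, and the D7 ratio of miR-141-3p was above 1 in 5. From D5 to D7, miR-200c-3p was above 1 in 4 settings, at 1.05 with scaling to the median, 1.35 without normalization, 1.66 with 5S and 1.83 with the spike controls. Under the last 3 of these, 4 members were at least 2-fold higher.

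The difference between cluster-only and seed-only pairs stayed below 0 in all 14 settings on D3 and on D5. On D3 it was -1.28 under each scaling by 1 factor per array (none, 75th percentile, median, spike controls, 5S), which are equal because the factor cancels between members. It was -1.25 with cyclic loess, -1.36 with the 2 arrays alone, -1.07 and -1.19 with offsets of 16 and 100, -0.84 with subtraction, -0.85 with the authors' processed values and -1.08 with the first spot. On D5 it was -1.15 under those scalings, -1.20 with the 2 arrays alone, -0.91 with subtraction and -0.89 with the processed values. On D7 it was -0.20 with cyclic loess, -0.0707 with the 2 arrays alone, -0.0735 with the second spot and -0.16 with the processed values. With age it was -0.0411 under the scalings by 1 factor, -0.0133 with cyclic loess, 0.0694 with the processed values and 0.12 with the second spot. The cause of these changes was not tested.

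Alternatives chosen after seeing the data left out the pairs of 1 member. Without miR-200c-3p the difference was -0.51 on D3, -0.96 on D5, -0.53 on D7 and -0.24 with age. These values rest on miR-200a-3p and miR-141-3p as the only seed-only pair, and the D3 order was reversed with the authors' processed values. Without miR-141-3p the difference was -2.44 on D3, -1.32 on D5 and -0.23 with age. Subtracting the deviation of nearby spots, also added later, changed no count of members past 2-fold. No paired analysis was possible because no condition has more than 1 array.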
